A study of Mus musculus with 30 samples.

Results

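The clustered protocadherin locus was taken as the interval of mouse chromosome 18 from base 36920000 to base 37850000 (mm10), which holds the Pcdha, Pcdhb and Pcdhg gene clusters. Its members were all CpG sites in the interval, with both strands summed, that had 10 or more reads. Of 1686 CpGs seen in any library, 284 had that coverage in all 30 libraries, out of 416876 such CpGs on the autosomes and the X chromosome. A wider set of 765 CpGs reached 10 reads in no fewer than 10 cadmium and 10 vehicle libraries, out of 1125285 across the genome, and these were used wherever single sites were tested. The interval carries 58 annotated clustered protocadherin genes: 12 Pcdha, 22 Pcdhb, 12 Pcdhga, 7 Pcdhgb and the 5 C-type genes Pcdhac1, Pcdhac2, Pcdhgc3, Pcdhgc4 and Pcdhgc5.

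Methylation was measured in sperm from the cauda epididymis of C57BL/6J males by reduced representation bisulfite sequencing, in which DNA fragments rich in CpG are selected and unmethylated cytosines are converted before sequencing. The cadmium group was 15 mice that drank reverse-osmosis water with 0.9 ppm of cadmium, made from cadmium chloride, at an average dose given as 0.68 mg of cadmium per kg of body weight. The vehicle group was 15 mice that drank the same water without cadmium. Both groups were 7 weeks old on arrival, were acclimated for a week, ate the same diet with 10% of its calories from fat, were housed singly and are labelled as 9 weeks post treatment. Each library is named here by its group and number.

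Clustered protocadherins are cell adhesion proteins of the neuronal surface, and neurons use different combinations of them to tell their own processes from those of other neurons. Each alternate gene begins with a large exon that has its own CpG-rich promoter; in the Pcdha and Pcdhg clusters that exon is spliced to constant exons shared by the whole cluster, while Pcdhb genes are single exons with no constant part. In neurons the alternate promoters are chosen at random and binding of CTCF to an unmethylated promoter and exon goes with use of the gene, while the C-type genes are used more evenly. Mature sperm are transcriptionally quiet cells that do not use these genes.

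The coverage summed over all cytosines was 57856937 to 79777446 reads in cadmium libraries and 53591172 to 94090975 reads in vehicle libraries. The protocadherin interval took 34389 to 56833 of these in cadmium libraries and 35060 to 58225 in vehicle libraries. The spiked-in unmethylated control read as 0.185% to 0.507% methylated in cadmium libraries and 0.0740% to 0.666% in vehicle libraries. The labelled cell type was set against windows of genes linked to germ-line differentially methylated regions that are methylated in eggs and not in sperm. The windows were placed by gene position, and whether each covers its region was not checked. Of 22 such windows, 20 were measured and 17 of these averaged under 20% methylation, the lowest being Herc3 at 0.425%. The measured windows above that limit were Fkbp6 at 68.6%, Mest at 26.5% and Plagl1 at 21.5%. Over the 15 windows under 20% that were covered in every library, the level ranged from 5.62% to 23.3% in cadmium mice (median 15.6%). In vehicle mice it ranged from 2.64% to 28.5% (median 9.66%), so no library was at 0. These windows were kept by their mean in the same libraries. Peg3 and Usp29 gave the same values, as did Sgce and Peg10. Of the other marker lists, 5 of 6 germ-cell genes that body cells methylate had a measured window, averaging 15.9% to 31.2% each over all libraries, as did 2 of 4 epididymal epithelium genes (11.2% and 76.4%) and 1 of 4 leukocyte genes (90.2%). The windows of the paternally methylated genes H19, Meg3 and Rasgrf1 lie at gene starts and not at their control regions, so they check nothing. The share of coverage on mitochondrial DNA ranged from 0.0127% to 0.0923% in cadmium libraries and from 0.0128% to 0.119% in vehicle libraries. Both measures moved with protocadherin methylation, and their values stand beside the results they touch. A bulk value between 0% and 100% does not tell apart a site that is partly methylated in many cells from a mixture of cells that do and do not carry the mark.

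Within the locus, the C-type genes were almost free of methylation around their starts, and the alternate genes were partly methylated. A start window was defined as 1000 bases on either side of the annotated gene start and was measured where it held 3 or more tested CpGs. It was measured for 31 of the 58 genes, 27 alternate and 4 C-type; 6 more genes had 1 or 2 CpGs there and 21 had none. The unmeasured genes were mostly Pcdha and Pcdhb genes, with 6 of 12 Pcdha and 6 of 22 Pcdhb windows measured against 10 of 12 Pcdhga and 5 of 7 Pcdhgb windows. Mean methylation over libraries had a median of 25.99% over the Pcdha windows, 24.8% over the Pcdhb windows, 18.2% over the Pcdhga windows and 10.3% over the Pcdhgb windows. The 4 C-type windows had a median of 0.977%.

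The 3 least methylated windows of the locus all belonged to C-type genes. Pcdhgc3 (start 37806410, 28 CpGs) ranged from 0% to 2.36% in cadmium sperm (median 0.373%) and from 0% to 1.92% in vehicle sperm (median 0.0982%). Pcdhgc4 (start 37815079, 14 CpGs) averaged 1.10% ± 1.84 in cadmium sperm and 0.565% ± 1.05 in vehicle sperm (SD, n = 15 each). Pcdhac2 (start 37143678, 22 CpGs) averaged 1.14% ± 1.18 in cadmium sperm and 1.10% ± 1.32 in vehicle sperm (SD, n = 15 each). Pcdhac1 (start 37090136, 29 CpGs) was higher than these, with cadmium mice between 1.22% and 11.6% (median 4.33%) and vehicle mice between 0.328% and 11.3% (median 4.81%). The ranges of the groups overlapped at each of these genes. Pcdhgc5, the last variable exon of the Pcdhg cluster, was the exception among the C-type genes: it had only 2 tested CpGs in its start window, 250 and 269 bases after the start, and they averaged 93.2% and 83.8% over all libraries.

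Pcdhb13 (37442517 to 37446209) had the most methylated start window of the locus. Its 5 CpGs ranged from 31.4% to 61.2% in cadmium mice (median 57.6%) and from 32.4% to 82.4% in vehicle mice (median 54.6%). No library was near 0 or 100%. Pcdhb17 (37485021 to 37488290, 7 CpGs) came next, at 36.0% ± 22.01 in cadmium sperm and 39.98% ± 19.8 in vehicle sperm (SD, n = 15 each). Pcdha1, the first gene of the interval (start 36930285), followed: its mean was 39.1% ± 36.9 over 10 cadmium mice and 23.2% ± 25.7 over 13 vehicle mice (SD), on only 3 CpGs and a median of 69 reads per library. The difference of 15.9 points at Pcdha1 was 4.72 points with a minimum of 5 reads.

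**Figure D1:**
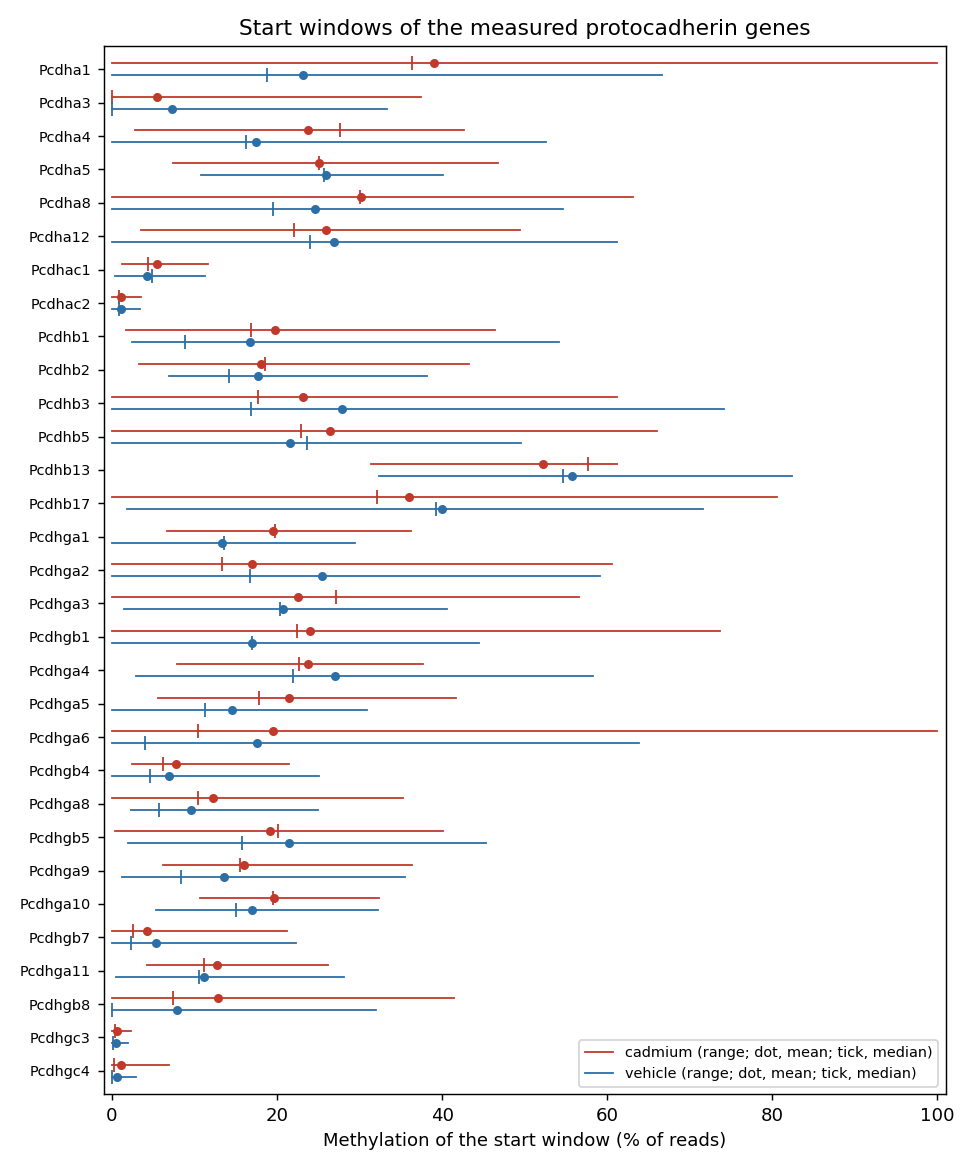
Methylation of the start window (x axis, percent of reads) for the 31 protocadherin genes with 3 or more tested CpGs there, in genome order down the y axis, with cadmium mice drawn above vehicle mice. Lines span the lowest to the highest mouse, dots are means and ticks are medians; the C-type genes Pcdhac1, Pcdhac2, Pcdhgc3 and Pcdhgc4 stay below 12% in every library, and the ranges of the groups overlap at every gene.

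Pooled over the alternate genes, methylation changed along the exons. In the first 500 bases after the gene start, 109 CpGs of 23 alternate genes averaged 13.5%. The next 500 bases averaged 23.5% (102 CpGs) and the 500 after that averaged 32.9% (107 CpGs). The medians over the CpGs of these bins were 11.4%, 22.6% and 28.4%. The last of these bins takes in part of the exon of Pcdhga7, described below, and its highest CpG averaged 96.4%. Further in, the mean was 24.7% between 1500 and 2000 bases and 21.4% between 2000 and 2500 bases. The 1000 bases before the start averaged 23.5% on 31 CpGs of 10 genes. The bins hold partly different genes, because the restriction fragments covered each exon in different places. The families also differed over the bins from the start to 1500 bases. Pcdhga, with 64, 62 and 54 of the CpGs, averaged 11.7%, 21.7% and 36.8%. Pcdhb averaged 23.4%, 33.7% and 34.2%, and Pcdhgb averaged 9.49%, 27.2% and 25.4%. Pcdha averaged 19.1% and then 16.4%, and had no tested CpG between 1000 and 1500 bases.

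The pooled contrast along the exon was present in each mouse. Over the CpGs covered in every library, the stretch from 1000 to 2500 bases of alternate exons averaged 33.1% ± 11.3 (73 CpGs) and the first 500 bases averaged 13.9% ± 7.01 (29 CpGs; SD over 30 mice). The difference was 19.2 points (95% interval 16.3 to 22.1) and had the same direction in 30 of 30 mice. Only the farther stretch can hold CpGs of Pcdhga7, which averaged 94.8% downstream and had no tested CpG in its start window. The difference without that exon was not computed. These distances were chosen after the values were seen, so no test is given. Gene by gene, the downstream part was measured with 3 or more CpGs beside a measured start window in 20 alternate genes, and 15 of them had the higher mean downstream. Pcdha1, Pcdhb17, Pcdhgb1, Pcdhgb5 and Pcdhga9 had it in the start window.

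Of the C-type genes, Pcdhac1, Pcdhac2 and Pcdhgc3 also had more methylation further into the exon, and Pcdhgc5 had less. Pcdhac2 averaged 0.832% over 14 CpGs in its first 500 bases and 15.7% over 11 CpGs between 1000 and 1500 bases. Pcdhgc3 averaged 0.563% in its start window and 7.84% ± 8.10 over the 20 CpGs downstream of it (SD over 30 mice). In Pcdhac1 the 5 downstream CpGs averaged 32.6%. Pcdhgc5 averaged 89.1% over the 2 CpGs of its start window and 37.7% over its 7 downstream CpGs. Here and below, alternate exon and C-type exon CpGs are those of the start windows and downstream parts together. They thus take in CpGs up to 1000 bases before the start, 31 alternate and 24 C-type among the tested CpGs. Over the CpGs covered in every library, alternate exons averaged 26.3% ± 9.71 (163 CpGs) and C-type exons 6.40% ± 2.71 (39 CpGs; SD over 30 mice). The alternate exons were the higher of the pair in 30 of 30 mice, by 19.9 points (95% interval 17.0 to 22.8); this comparison, too, was chosen after the values were seen. With 20 or more reads per CpG, which left fewer CpGs, it was 7.37 points.

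**Figure D2:**
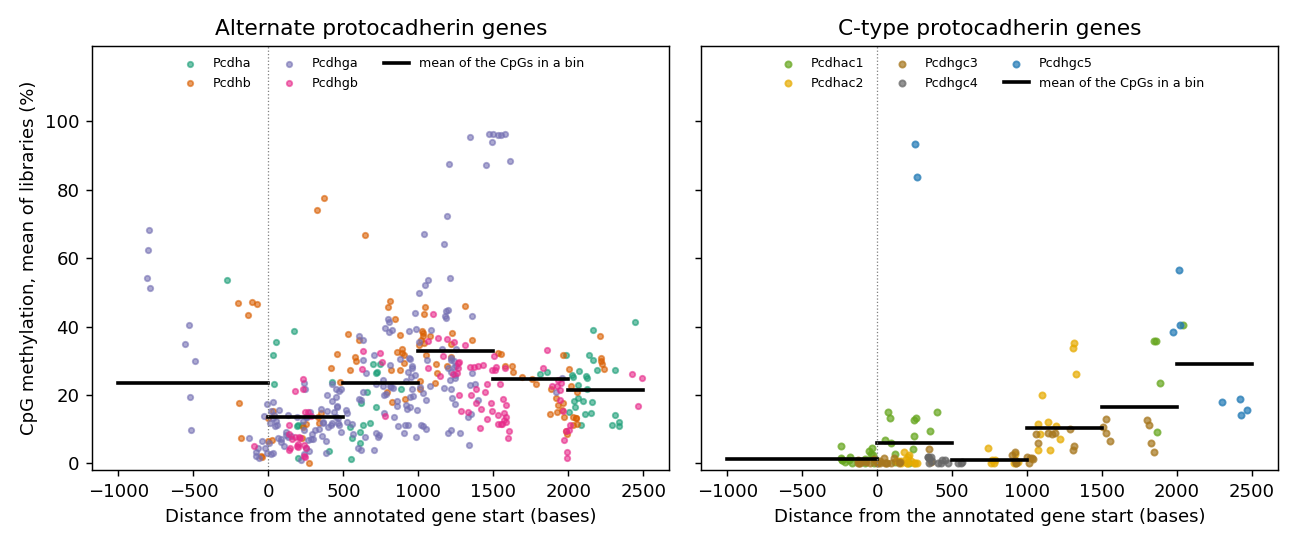
Mean methylation over libraries of each tested CpG (y axis, percent) against its distance from the annotated gene start (x axis, bases), for alternate genes on the left and C-type genes on the right. Points are CpGs coloured by family or gene and black bars are bin means; the alternate bins lie at 13.5% just after the start and 32.9% between 1000 and 1500 bases, while most C-type points before base 1000 lie near 0.

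A single alternate exon was close to fully methylated. The 9 CpGs measured in Pcdhga7 (start 37714834) lie 1347 to 1612 bases after its start, and together they ranged from 91.0% to 99.1% in cadmium mice (median 95.3%) and from 88.2% to 100% in vehicle mice (median 94.97%). Their SD over the 30 mice was 2.49 points. Start windows of other genes that averaged 80% or more had a median SD of 7.38 points. The next highest downstream exon was that of Pcdhga1 at 65.9%, and the 28 alternate genes with 3 or more downstream CpGs had a median of 25.1%. The start window of Pcdhga7 held no tested CpG.

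The alternate exons stood apart from most of the measured genome in how many of their CpGs were partly methylated. A mean between 10% and 40% was found for 319 of 452 alternate exon CpGs, or 70.6%, against 6.90% of all tested CpGs. Of the 138 C-type CpGs, 92 averaged under 5%, a share of 66.7% that can be set beside 52.1% of all tested CpGs. Only 2.21% of alternate exon CpGs averaged over 80%, where 29.4% of all tested CpGs lay. Neighbouring CpGs share fragments, so these shares are descriptions with no test.

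**Figure D3:**
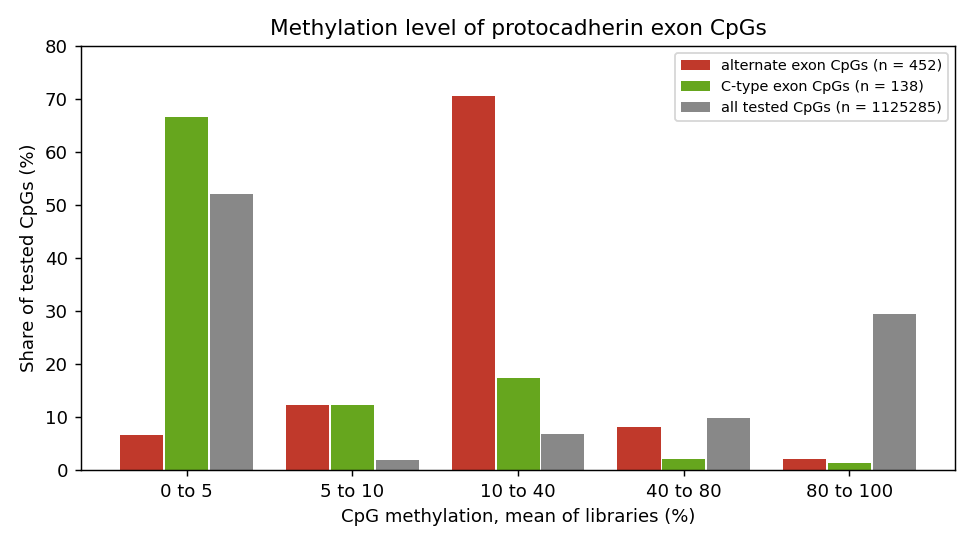
Share of tested CpGs (y axis, percent) whose mean methylation over libraries falls in each band (x axis, percent), for alternate exon CpGs, C-type exon CpGs and all tested CpGs. The tallest bar is 70.6% of alternate exon CpGs between 10% and 40%, where 6.90% of all tested CpGs lie.

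Against the rest of the libraries, the start windows of the locus were more methylated than other gene windows. The 26 protocadherin windows covered in every library averaged 18.2% ± 7.45, and the other 16697 gene windows averaged 10.7% ± 0.461 (SD over 30 mice). The difference of 7.43 points (95% interval 4.76 to 10.1) was positive in 28 of 30 mice, and a two-sided permutation test with sign changes within mouse gave p = 1e-05, the smallest that 100000 resamples can give. The 2 sets of windows were not placed by the same rule. Protocadherin windows lay at the lower coordinate, and other genes without a known strand took the gene end with more tested CpGs. What part this has in the difference was not tested. The whole interval, with its CpGs between genes and inside introns included, averaged 25.3% ± 7.07, against 28.0% ± 0.397 over 413787 other autosomal CpGs. That difference of -2.78 points (95% interval -5.41 to -0.144, p = 0.0413 in the same test) was positive in 9 mice and depended on coverage, as it was -0.444 points (p = 0.754) with 20 or more reads per CpG. It was -7.26 points with methylated reads taken as a share of all reads.

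The Hox clusters and the protocadherin genes outside the interval give further points of reference. The 1439 CpGs of the 4 Hox clusters, which encode developmental transcription factors, averaged 4.90% ± 0.871 over the 30 mice. Of 12 non-clustered protocadherin genes, 9 had a measured start window and 8 of these averaged under 20%. Their median was 0.823%. Pcdh12, which is expressed in endothelium, was the exception at 93.7% ± 8.37 in cadmium sperm and 96.2% ± 5.42 in vehicle sperm (SD, n = 15 each). Of 22 genes for regulators of protocadherin promoters and DNA methylation, such as Ctcf, the cohesin genes Smc1a and Smc3, Setdb1, Smchd1 and Dnmt3b, 16 had a measured window and the highest of them, Ehmt1, averaged 1.20%.

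Mice differed from each other at the locus much more than at most of the genome. The SD over libraries had a median of 19.3 points over the 765 CpGs, 22.3 points over alternate exon CpGs and 7.20 points over C-type CpGs, against 5.52 points over all tested CpGs. CpGs of similar level did not show that contrast. Among CpGs averaging 10% to 40%, the median SD was 24.3 points in the locus and 25.7 points over all tested CpGs, and the ratio of the SD to the SD expected from read counting alone was 3.73 in the locus and 3.66 over all.

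Alternate exons moved together from mouse to mouse. Pairs of CpGs up to 50 bases apart had a median correlation of 0.575 over the 30 mice (150 pairs), and pairs more than 2500 bases apart still had a median of 0.227 (12474 pairs). Between whole start windows of 22 alternate genes the median was 0.443 over 231 pairs, with a range from -0.167 to 0.826. These values are descriptions, since all pairs come from the same 30 libraries. The largest SDs of single windows were those of Pcdha1 at 31.3 points, Pcdhga6 at 24.3 points and Pcdhb3 at 22.1 points, all on 3 to 5 CpGs. Pcdhga6 ranged from 0% to 100% in 14 cadmium mice (median 10.4%) and from 0% to 63.9% in 14 vehicle mice (median 3.97%). Pcdhb3 ranged from 0% to 61.2% in cadmium mice (median 17.8%) and from 0% to 74.2% in vehicle mice (median 16.9%).

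The mean over alternate exons ordered the libraries almost as their mitochondrial share of coverage did. The mean ranged from 13.8% to 45.6% in cadmium mice (median 26.8%) and from 12.5% to 47.6% in vehicle mice (median 22.6%). Over the 30 mice it correlated with the mitochondrial share at Pearson r = 0.918 and Spearman rho = 0.924, each with permutation p = 1e-05, the smallest that 100000 resamples can give (adjusted p = 2e-05 for r over the 8 relations computed). Within groups r was 0.862 in cadmium mice and 0.948 in vehicle mice, and it was 0.896 without vehicle 13 and vehicle 12, which had the highest mitochondrial shares. The library with the lowest share, cadmium 5, averaged 13.8% over the alternate exons, and the one with the highest, vehicle 13, averaged 47.6%.

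Methylation of the 15 maternal germ-line windows kept for a mean under 20% followed the same order. Its correlation with the alternate exon mean was r = 0.846 and rho = 0.870 (permutation p = 1e-05 for each), with r of 0.663 in cadmium mice, 0.953 in vehicle mice and 0.773 without vehicle 4 and vehicle 13. The mean over all autosomal and X CpGs gave r = 0.0847 (p = 0.668; rho = 0.0945, p = 0.619) and the total coverage gave r = 0.182 (p = 0.335; rho = 0.144, p = 0.447). What part cells other than sperm have in the protocadherin values was not tested.

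The relation differed between segments of the locus. Over the alternate genes, r with mitochondrial share was lowest in the Pcdha downstream exons, at 0.577 on 3 CpGs, and highest in the Pcdhg downstream exons, at 0.925. In the C-type genes it was 0.221 for the start windows and 0.695 for the downstream exons. The rest of the locus had r = 0.885. Among the 22 alternate start windows covered in every library, 16 had r over 0.5, with Pcdha12 highest at 0.839. Pcdhb13, the most methylated window, was lowest at 0.0846. Of the 4 C-type windows, none had r over 0.5. Other gene windows had r over 0.5 in 8.51% of 16693 cases, but in 54.5% of the 1291 cases whose mean was also 10% to 40%, so the relation was common among partly methylated gene starts and is not called particular to protocadherins.

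**Figure D4:**
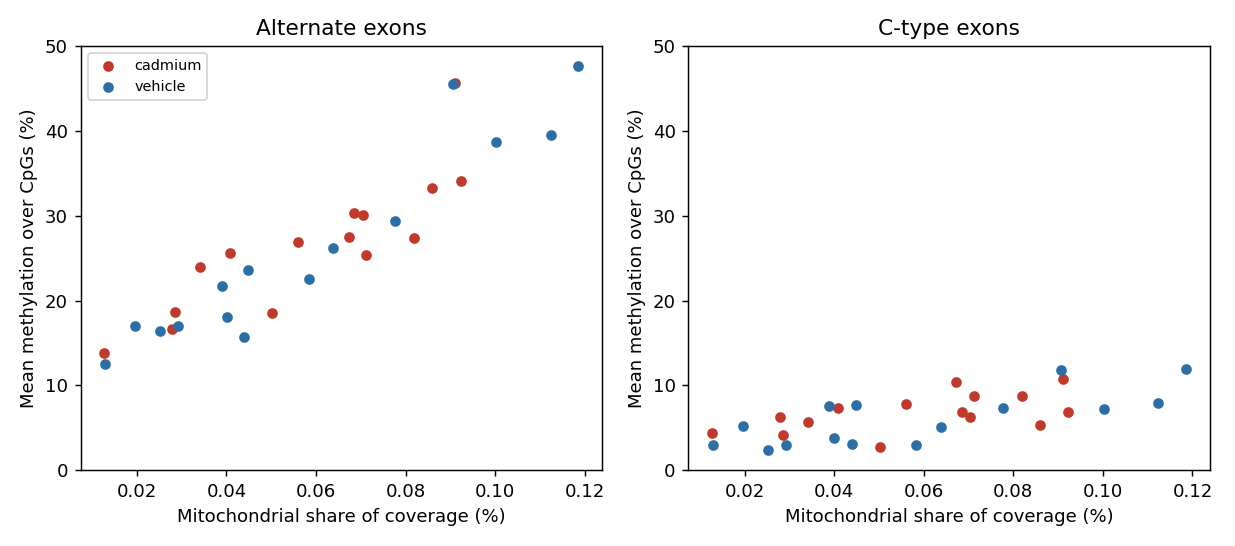
Mean methylation over alternate exon CpGs (left) and C-type exon CpGs (right) on the y axis (percent) against the mitochondrial share of coverage on the x axis (percent), 1 point per mouse, cadmium in red and vehicle in blue. Alternate exons range from 12.5% to 47.6% and C-type exons from 2.37% to 11.9%, and in both panels the library with the highest mitochondrial share, vehicle 13, has the highest mean.

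No gene of the locus was called between cadmium and vehicle sperm. In a logistic model of methylated and unmethylated reads with dispersion, adjusted by Benjamini-Hochberg over all 17669 gene windows of the series, 0 of 31 protocadherin start windows passed an adjusted p of 0.05, as did 0% of all gene windows. Limma on percent methylation called 0 windows as well. At an unadjusted p under 0.05, 0 of 31 protocadherin windows and 5.57% of all windows passed. The mean was higher in cadmium sperm at 21 windows and lower at 10, with a median difference of 1.27 points beside 0.00535 points over all windows. The share of all windows with the higher mean was not computed. Of other gene windows, 76.1% averaged under 5%, with a median SD of 0.664 points, so the medians are unlike in level. Alternate windows also moved together between mice, so no lean is read from these counts. Mitochondrial share had similar means in the groups, at 0.0586% ± 0.0252 in cadmium libraries and 0.0584% ± 0.0342 in vehicle libraries (SD, n = 15 each).

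The window with the smallest p was that of Pcdhga5 (start 37694375, 9 CpGs). It ranged from 5.62% to 41.6% in cadmium mice (median 17.8%) and from 0% to 30.9% in vehicle mice (median 11.3%), a difference of 6.93 points (unadjusted p = 0.0637, adjusted p = 0.922). Pcdhga8 ranged from 0% to 35.3% in cadmium mice (median 10.48%) and from 2.33% to 25.0% in vehicle mice (median 5.76%), with an adjusted p of 0.997 in the logistic model. The groups overlapped over most of their range at both genes. Among windows with the lower mean in cadmium sperm, Pcdhga2 had the smallest p: it averaged 17.0% ± 14.9 in cadmium sperm and 25.4% ± 18.4 in vehicle sperm (SD, n = 15 each), with an adjusted p of 0.997 in the same model. Pcdhb13, described above, differed by -3.52 points. Pcdha3, a gene at 0% in 18 of the 27 libraries that covered it, averaged 5.50% ± 13.3 in 13 cadmium mice and 7.30% ± 10.8 in 14 vehicle mice (SD).

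Single CpGs gave the same picture. None of the 765 passed an adjusted p of 0.05, where 0.000533% of all tested CpGs did, and 5.62% of them had an unadjusted p under 0.05, against 10.1% of all. That last share, 113324 of 1125285 CpGs in the logistic model, depends on the model, as limma put 18157 of the same CpGs under 0.05. The 2 shares are therefore not read as a lack of differences in the locus. The smallest p was at a CpG 119 bases into Pcdhga8 (chr18:37725825-37725826), with a mean of 14.7% ± 17.9 over 14 cadmium mice and 2.36% ± 6.05 over 15 vehicle mice (SD; adjusted p = 0.291 in the logistic model). A CpG 567 bases into Pcdhga11 averaged 16.9% ± 24.9 in 13 cadmium mice and 1.11% ± 4.16 in 14 vehicle mice (SD; adjusted p = 0.299 in the same model). In the other direction, a CpG 253 bases into Pcdhga4 averaged 2.93% ± 7.53 in 11 cadmium mice and 22.6% ± 29.1 in 13 vehicle mice (SD; adjusted p = 0.343 in the same model). Each of these sites had a median coverage of 49 reads or fewer.

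Some of the sites with the smallest p lay in nearly unmethylated C-type starts and differed by little. A CpG 153 bases into Pcdhgc3 averaged 0.843% in cadmium sperm and was 0% in all 15 vehicle mice. A CpG 11 bases before the start of Pcdhac1 was 0% in all 14 cadmium mice that covered it and averaged 1.80% in 15 vehicle mice. The sixth named site, chr18:37654009-37654010, lay outside the gene windows and averaged 93.8% ± 13.1 in 12 cadmium mice, while all 12 vehicle mice that covered it read 100%. None of the 3 passed the adjustment. In the order given, their unadjusted p was 0.00543, 0.0113 and 0.0147 in the logistic model and 0.261, 0.197 and 0.114 in limma. A group wholly at 0% or 100% adds no spread to the dispersion of the logistic model, so its p can be too small there.

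CpG clusters, runs of 3 or more tested CpGs with gaps of at most 100 bases, numbered 104 in the locus. None passed an adjusted p of 0.05, where 0.000974% of 102696 clusters did, and 4.81% had an unadjusted p under 0.05 against 6.02% of all. The cluster with the smallest p held 3 CpGs of Pcdhac2 (chr18:37144592-37144615) and averaged 1.69% ± 3.31 (SD) in 14 cadmium mice, while all 14 vehicle mice that covered it read 0%. Limma gave unadjusted p = 0.0664 there, and the logistic model gave unadjusted p = 7.82e-05 (adjusted p = 0.192). A group at 0% throughout adds no spread to the dispersion of the logistic model, so its p can be too small. A cluster of 10 CpGs downstream in the Pcdha1 exon (chr18:36932330-36932600) averaged 25.4% ± 15.4 in cadmium sperm and 13.9% ± 14.2 in vehicle sperm (SD, n = 15 each; adjusted p = 0.755 in the same model). A cluster of 3 CpGs in the Pcdhga11 start window averaged 9.76% ± 11.2 in 13 cadmium mice and 2.17% ± 5.23 in 14 vehicle mice (SD; adjusted p = 0.591 in the same model). With a wider limit on gaps, which joins these runs to more CpGs, the difference was 0.640 points at the Pcdhga11 cluster and 0.0419 points at the Pcdhac2 cluster, against 7.59 points and 1.69 points with gaps of at most 100 bases. Among clusters with the lower mean in cadmium sperm, 3 CpGs at Pcdhga2 averaged 21.3% ± 26.2 in cadmium sperm and 41.0% ± 31.7 in vehicle sperm (SD, n = 15 each; adjusted p = 0.950 in the same model). The other named clusters of that direction, at Pcdhga4 and 7765 bases before Pcdhga1, differed by -11.9 and -7.04 points.

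Averaged over 13 segments, the permutation test gave no p under 0.05, adjusted or not. The whole locus ranged from 16.4% to 39.2% in cadmium mice (median 25.7%) and from 15.4% to 41.3% in vehicle mice (median 23.1%). Its mean difference was 0.416 points with a 95% interval from -4.99 to 5.82 points. With the mitochondrial share of coverage as a covariate, an alternative added after the values were seen, the difference was 0.377 points and the interval narrowed to -1.74 to 2.50 points.

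By cluster, the start windows averaged 24.3% ± 9.36 in cadmium sperm and 23.2% ± 11.5 in vehicle sperm for Pcdha, and 28.7% ± 9.94 in cadmium sperm and 30.2% ± 11.4 in vehicle sperm for Pcdhb (SD, n = 15 each). For Pcdhg they averaged 19.03% ± 7.08 in cadmium sperm and 18.2% ± 10.3 in vehicle sperm. The downstream exons of Pcdhg averaged 33.5% ± 9.05 in cadmium sperm and 33.7% ± 12.03 in vehicle sperm. The C-type start windows averaged 1.10% ± 0.954 in cadmium sperm and 0.653% ± 0.727 in vehicle sperm. The 95% interval of each of these differences included 0.

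**Figure D5:**
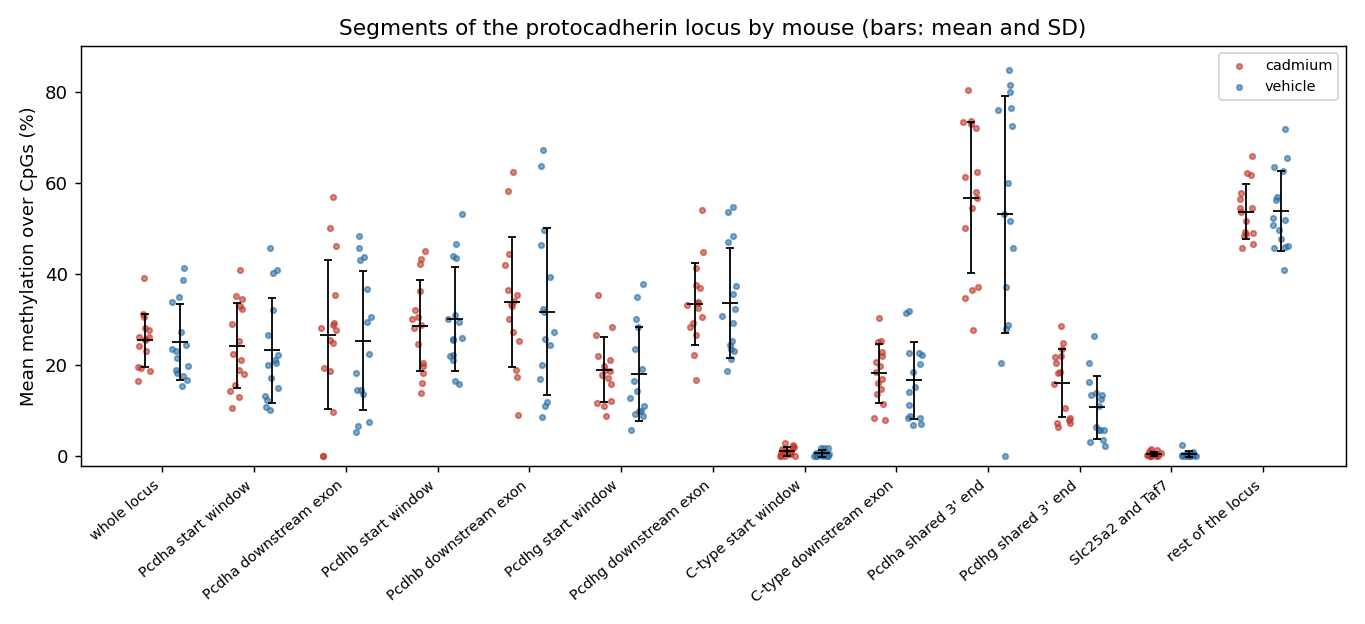
Mean methylation over the CpGs of each segment (y axis, percent) by mouse, for the 13 segments on the x axis, with cadmium in red to the left of vehicle in blue; black bars are the group mean and SD (n = 15 each). The groups overlap in every segment, including the Pcdhg shared 3′ end with means of 16.1% in cadmium sperm and 10.7% in vehicle sperm.

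The annotation used here gives no exons, so the constant exons were approached through the shared end of each cluster, from 5000 bases before to 1000 bases after it. Near the shared end of Pcdha, 5 CpGs were tested 1788 to 2641 bases before the end and averaged 27.6% to 79.8% each. The only one covered in every library, chr18:37185101-37185102, ranged from 27.8% to 80.4% in cadmium mice (median 57.9%) and from 0% to 84.6% in vehicle mice (median 53.2%). For Pcdhg, the 7 tested CpGs of this stretch all lay 562 to 995 bases beyond the annotated end. Tested CpGs farther upstream, such as a run of 3 at chr18:37825028-37825069 that averaged 8.72%, are counted in the rest of the locus. Without exon positions, whether any of them lies in a constant exon cannot be told.

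Those CpGs beyond Pcdhg gave the largest group difference among the 13 segments relative to its spread. The 3 of them covered in every library ranged from 6.35% to 28.5% in cadmium mice (median 18.3%) and from 2.20% to 26.4% in vehicle mice (median 11.1%). Most of the range was shared by both groups. The difference was 5.41 points (95% interval 0.00554 to 10.8), with a two-sided permutation p of 0.0508 before any adjustment. With the mitochondrial share as a covariate it was 5.38 points (0.757 to 10.0, unadjusted p = 0.0225). In the series-wide logistic model, the window at the ends of the predicted genes Gm37013, Gm38666 and Gm38667, which share these 7 CpGs, averaged 18.4% ± 8.54 in cadmium sperm and 12.9% ± 7.00 in vehicle sperm (SD, n = 15 each; unadjusted p = 0.0279, adjusted p = 0.821).

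Of the genes of the interval without a protocadherin name, Gm37013, Gm38666 and Gm38667 are given above. Their window is centred at base 37841873, where Pcdhga8 also ends, so they are not set apart from the Pcdhg cluster here. Taf7, which encodes a subunit of the general transcription factor TFIID and lies between the Pcdhb and Pcdhg clusters, averaged 0.564% ± 0.422 over 31 CpGs in cadmium sperm and 0.472% ± 0.430 in vehicle sperm (SD, n = 15 each). Slc25a2, a mitochondrial carrier gene, had no tested CpG. The rest of the locus, outside the start windows, downstream exons and shared ends, averaged 53.7% ± 6.12 in cadmium sperm and 53.8% ± 8.78 in vehicle sperm on 47 CpGs. Of the 132 CpGs tested there, 58 averaged over 80%.

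No member of the other gene lists was called either. Of the 9 measured non-clustered protocadherins, 0 passed the adjusted threshold in the logistic model, and Pcdh1 had the smallest p at 0.440% ± 0.320 in cadmium sperm and 0.795% ± 0.520 in vehicle sperm (SD, n = 15 each; unadjusted p = 0.0145, adjusted p = 0.741). Pcdh10 averaged 0.321% ± 0.666 in cadmium sperm and 1.32% ± 1.76 in vehicle sperm, and Pcdh7 averaged 0.124% ± 0.291 in cadmium sperm and 0.495% ± 0.993 in vehicle sperm (SD, n = 15 each). Among the 16 measured regulators, 0 passed; Setdb1, a histone methyltransferase gene, had the smallest p at 0.201% ± 0.419 in cadmium sperm and 0.649% ± 1.05 in vehicle sperm (SD, n = 15 each), and Smc1a and Tet3 followed with differences under 1 point.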

How the data were processed

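The authors deposited, for each library, methylation as a fraction of reads and the coverage as read counts at each cytosine; per the submitters' processing notes the build was mm10 and the tools named are bcl2fastq, methylKit 1.12.0, Bismark 0.22.3 and Trim Galore 0.5.0, with no role or order given. From the deposited fractions and counts, methylated reads were recovered and both strands of a CpG summed. Values under 10 reads or above the 99.9th percentile of a library's coverage were set as missing. Groups were compared at CpGs, clusters and gene windows of the autosomes and X with a logistic model (Pearson dispersion never below 1, F test), adjusted by Benjamini-Hochberg over all features of the series, and segment means by permutation tests with 100000 resamples; limma 3.58.1 was an alternative. The scripts ran in Python 3.11.15 and were tested on simulated data. Gene positions came from RefSeq GRCm38.p6; strand was known for 26794 of 34338 genes, and for protocadherins the lower coordinate was used as the start. Genes given in full were the C-type genes, the windows of the 3 highest and 3 lowest means, the 3 largest SDs and the 3 smallest p in each direction, with likewise 3 CpGs and 3 clusters in each direction. The members and lists were chosen with earlier results of these data known, and the position of the shared-end segments after CpG positions were seen. The labels give 1 library per mouse and no batch. Reads carry no molecular identifier that the sources used here name, so SDs expected from read counts cover counting error only.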

Additional observations from a re-analysis of the deposited data

How the results depend on the processing

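No protocadherin CpG, cluster, window or segment passed its adjusted threshold under any alternative run, limma included. The locus against other autosomal CpGs no longer passed its threshold with 20 reads, at -0.444 points (p = 0.754). Differences that were not called changed sign as follows. With all 15 mice of each group, Pcdhac1 was at -0.188 points. With windows of 500 bases, Pcdhac2 was at -0.121 and Pcdhga6 at -7.89 points. The Pcdha start windows were then at -5.22 points, on 1 CpG where the main setting had 9. With windows of 2000 bases, Pcdhac1 was at -0.295, Pcdhac2 at -0.408, Pcdha3 at 3.51 and Pcdhb17 at 0.753 points. With 5 reads, the Pcdha start windows were at -0.904, the Pcdhg downstream exons at 0.505 and the rest of the locus at 0.2201 points. With 20 reads, the Pcdhg downstream exons were at 0.0939 and the C-type start windows at -0.274 points. With CpGs covered in at least 10 mice of each group, the Pcdhg downstream exons were at 2.07 and the rest of the locus at 0.729 points, and with methylated reads as a share of all reads the rest of the locus was at 0.487 points. The cause of these changes was not tested.

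The groups share replicate numbers, and the main group tests did not pair the mice by them. Of 15 same-numbered pairs, 6 correlated above 0.1, with a range from -0.269 to 0.694. Their mean was 0.113, against -0.00668 for pairs with different numbers, and 2 of the 15 correlated best with their own number. Whether the numbers mark a shared batch was not tested. With the replicate number as a block, 0 features were called, the whole locus stayed at 0.416 points (p = 0.830) and Pcdhga6 was at -1.80 points. Depth limits single sites: those of the smallest p in Pcdhga8, Pcdhga11 and Pcdhga4 had a median coverage of 49 reads or fewer.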
